A study of Mus musculus with 2 samples.

Results

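The T and NK barcodes of a sort for CD11b+ leukocytes are described here, cell barcodes of droplet single-cell RNA sequencing whose RNA held T cell or NK cell genes. A barcode was a member when it held at least 2 UMIs (molecules counted) summed over Cd3d, Cd3e, Cd3g, Lck and Ctsw, no Cd79a or Cd79b UMI, and under 2% of its UMIs in S100a8, S100a9 and Retnlg, among barcodes with 300 or more genes and at most 10% mitochondrial UMIs. By this rule 73 of 3963 kept barcodes were members, 3 of 1116 in library 1 and 70 of 2847 in library 2. The members were thus chosen by their own measured UMIs, and gene levels in them are given as a description, with no test.

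Both libraries belong to 1 group: mice given 150000 LLC cells (the Lewis lung carcinoma line of the mouse) in 100 µl PBS into the pleural cavity, whose effusion fluid was aspirated after 10 days. Live CD45+ CD11b+ cells were sorted from it and run with the 10x Genomics Single Cell 3' v2 kit. The labels give no tumour-free group, strain, sex, age or number of animals, and do not say whether the libraries came from separate animals. Barcodes of library 2 also carry counts of 2 CD45 antibody tags named BC2 and BC3, whose meaning is not stated in the labels.

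T cells recognise antigen through a receptor that signals through the CD3 chains, encoded by Cd3d, Cd3e and Cd3g, and through the kinase Lck. CD8 T cells, which use Cd8a and Cd8b1 as coreceptor, and NK cells, which lack CD3 and use germline-encoded receptors such as Ncr1 (NKp46) and Klrb1c (NK1.1), share a killing machinery of granule proteins: perforin, granzymes and the granule protein Nkg7. CD11b, the integrin chain encoded by Itgam, marks myeloid cells, and in mice also mature NK cells and some activated CD8 T cells.

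Kept barcodes had a median of 10002 UMIs in library 1 and 2006 in library 2, with totals of 11543829 and 20322996 UMIs before filtering. Most of library 2 was neutrophil-gene barcodes, 1465 of 2847 with a median of 1333 UMIs, while 544 were macrophage-gene barcodes with a median of 14413 UMIs. Of the barcode sequences, 4 occurred in both libraries and 0 of these were members. In library 1, 767 of 1116 kept barcodes held Y-linked RNA without Xist, 349 held neither and 0 held Xist. In library 2, 1298 of 2847 held Xist alone, 109 held Y-linked RNA alone, 68 held both and 1372 neither. Library 2 thus held cells of a female source not seen in library 1. Whether the libraries shared any animal is not known. Among the 70 members of library 2, 58 held Xist alone and 4 Y-linked RNA alone, of which 2 were Cd3-bearing and 2 Cd3-free.

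Members made up 0.269% of kept barcodes in library 1 (exact 95% interval 0.0555 to 0.784%) and 2.46% in library 2 (1.92 to 3.1%), a mean of 1.36% ± 1.55 (SD, n = 2 libraries). The spread between libraries exceeded the mean. Sex-linked RNA also differed between the libraries, and its part in this spread was not tested. Intervals and floors cover counting error only. Of the 70 members of library 2, 36 held 5 or fewer UMIs of the complement genes C1qa, C1qb and C1qc, which macrophages make, and 34 held more than 5; they are called C1q-low and C1q-high here and are given apart. All 3 members of library 1 were C1q-low. Within the 36 C1q-low members of library 2, 27 held a Cd3 chain UMI, here Cd3-bearing, and 9 held none, here Cd3-free, and had entered the rule by Lck and Ctsw.

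**Figure D1:**
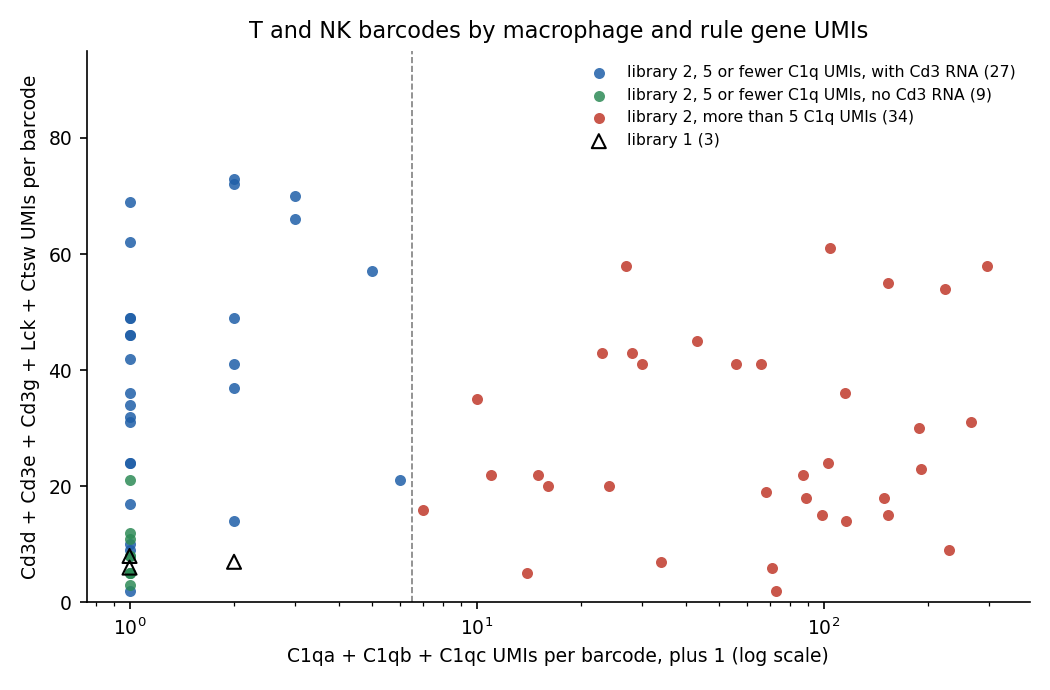
Summed UMIs of the 5 rule genes (y axis) against C1qa, C1qb and C1qc UMIs plus 1 on a log scale (x axis) for each of the 73 members, with a dashed line between 5 and 6 C1q UMIs. The 9 Cd3-free barcodes all lie at 0 C1q UMIs and hold 3 to 21 rule UMIs, and C1q-high barcodes reach 294 C1q UMIs.

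The rule left few members near its threshold. In library 2, 2 members held exactly 2 rule UMIs and together 0 UMIs of Nkg7, Cxcr6, Gimap4 and Cd8b1 and 1 of Gzma, while 35 barcodes just outside, with 1 rule UMI, held 1 UMI each of Nkg7, Cxcr6, Gzma and Cd8b1 in all and a median of 14486 UMIs. In library 1, 7 barcodes held 1 rule UMI and 0 UMIs of these 5 genes. Rule sums ran from 2 to 73 with a median of 41 in Cd3-bearing barcodes, from 3 to 21 with a median of 8 in Cd3-free ones, and from 2 to 61 with a median of 22.5 in C1q-high ones. Most members thus lay well above the threshold. A further 10 barcodes of library 2 met the rule but for a Cd79 UMI, 8 of them with 1 such UMI. These 10 held 370 rule UMIs and 265 Nkg7 UMIs, and since they count among the other barcodes they hold much of the T cell RNA there (Nkg7 303 UMIs in all 2777 others).

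The 7 markers of T and NK cells were checked first. The genes of the 3 CD3 chains lie side by side on chromosome 9 of mm10 (Cd3g at chr9:44969572-44980431 and Cd3d at chr9:44981786-44987339), Ctsw lies on chromosome 19 and overlaps Fibp on the other strand, which had 16 UMIs in the C1q-low members. In the C1q-low members of library 2, Nkg7 was in 34 of 36 barcodes, Gimap4 in 34, Lck in 34, Ctsw in 36, Cd3g in 25, Cxcr6 in 24 and Gzma in 18. In the C1q-high members, Nkg7 was in 33 of 34, Gimap4 and Cd3g in 32 each, Lck and Ctsw in 31 each, Cxcr6 in 29 and Gzma in 11. The rule used Cd3g, Lck and Ctsw, so their presence was largely fixed. The other 4 (Nkg7, Cxcr6, Gimap4 and Gzma) were not in the rule and were found in both classes. The label of library 2 rests on these 4, but Cxcr6 was in 1 of 9 Cd3-free barcodes. Markers and members were chosen with earlier results of these data known, so these 4 are no independent support for the label. Of the B cell markers, Cd79a, Cd79b, Ms4a1, Cd22, Pax5, Fcrla and Ebf1 had 0 UMIs in all 70 members of library 2, of which the absence of the Cd79 genes was fixed by the rule. In library 1, where the 3 members held 0 UMIs of Cxcr6, Gzma and Lck, the label rests on the Cd3 chains, which the rule used, and on Gimap4 in 2 of 3.

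The genomic stretch before the start of 3 genes that separate or join the classes is shown for reference, from the RefSeq promoter table of GRCm38.p6, 250 bases for Ncr1 and Cd8a. For Nkg7 the last 65 of the 250 bases lie inside the gene as GENCODE M21 places it, and the 185 bases before that are shown; of the 2 entries for Ncr1 in the table, the one that starts earlier is shown. Ncr1 was found in all Cd3-free barcodes, Cd8a in none of them, and Nkg7 in nearly all members. Capitals mark the core motif of RUNX factors, the letters TGTGGT or, on the other strand, ACCACA; RUNX factors act in the CD8 and NK lineages.
Ncr1, chr7:4337465-4337714, plus strand: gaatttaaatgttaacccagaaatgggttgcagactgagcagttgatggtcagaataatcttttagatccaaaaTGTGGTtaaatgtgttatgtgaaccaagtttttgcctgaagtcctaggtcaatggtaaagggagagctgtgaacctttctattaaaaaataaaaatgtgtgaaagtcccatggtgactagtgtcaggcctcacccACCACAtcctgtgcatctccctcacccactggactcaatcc
Cd8a, chr6:71373177-71373426, plus strand: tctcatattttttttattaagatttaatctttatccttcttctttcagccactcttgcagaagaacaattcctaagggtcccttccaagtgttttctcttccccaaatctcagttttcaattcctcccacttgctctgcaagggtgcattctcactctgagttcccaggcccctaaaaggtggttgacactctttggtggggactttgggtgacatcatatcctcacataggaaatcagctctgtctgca
Nkg7, chr7:43436888-43437072, plus strand: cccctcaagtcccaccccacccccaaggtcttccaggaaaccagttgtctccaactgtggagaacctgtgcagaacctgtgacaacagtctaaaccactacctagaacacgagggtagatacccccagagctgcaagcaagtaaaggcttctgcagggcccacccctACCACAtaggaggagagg
Counted from the RefSeq start, the motif occurred in the Ncr1 stretch at positions -176 and -41 and in the Nkg7 stretch at -83, and not in that of Cd8a. Counted from the GENCODE M21 start, these positions are -185 and -50 in Ncr1 and -18 in Nkg7, since the starts differ between the annotations. Of 32851 stretches of 250 bases in the table, 4614 (14%) held it on either strand, so these matches describe the sequence and mark no bound site. A second motif searched, the ETS core CCGGAA, was in 12% of the stretches and in 0 of these 3.

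Among the receptor genes, the Cd3-bearing barcodes were mostly Cd8 barcodes. Cd8a or Cd8b1 was found in 24 of 27 (88.9%, exact interval 70.8 to 97.6%), with 292 UMIs of Cd8b1 and 190 of Cd8a. Cd8b1, the beta chain of the coreceptor, had 0, 10 and 31 UMIs per barcode (lowest, median, highest). Cd4, the coreceptor of helper T cells, was in 1 of the 27 with 5 UMIs. Only 3 of the 27 held Cd3 RNA without Cd8 RNA. In the C1q-high barcodes, Cd8a or Cd8b1 was in 33 of 34 and Cd4 in 1, and in the 9 Cd3-free barcodes neither Cd8 gene nor Cd4 had a UMI. The 3 members of library 1 each held 1 Cd4 UMI and 0 Cd8 UMIs, with 6, 7 and 7 Cd3 UMIs at depths of 2839, 2327 and 16503 UMIs. After thinning to 1000 UMIs, 0 of these 3 held Cd8b1, with an exact interval of 0 to 70.8% that covers the 59.3% of Cd3-bearing barcodes of library 2, so a difference was not detectable with 3 barcodes.

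The T cell receptor complex and its signalling genes were counted against all genes. Of 4792 genes with at least 10 UMIs in the 36 C1q-low members of library 2, 1093 had a log2 ratio over 1 to the other kept barcodes (22.8%) and 419 a log2 ratio under -1 (8.74%), with a median log2 ratio of 0.32. Ratios are of CPM (UMIs of the gene over all UMIs of the class, as counts per 1e6) with 0.5 UMIs added, and the rule drew the class from the same cells. Of the 18 listed signalling genes, 17 had at least 10 UMIs; 16 of them lay over 1 and 0 under -1, with a median log2 ratio of 6.80. Zap70, the kinase recruited to the CD3 complex, had 39 UMIs in 19 Cd3-bearing barcodes, 12 UMIs in 5 Cd3-free and 34 UMIs in 20 C1q-high barcodes, against 11 UMIs in the 2777 others. Cd247, the zeta chain, had 48 UMIs in 21 Cd3-bearing barcodes and 2 UMIs in 2 Cd3-free ones. Genes that NK cells share were in both C1q-low groups: Cd2, an adhesion receptor, was in 25 of 27 Cd3-bearing and 8 of 9 Cd3-free barcodes, and the adaptor Sh2d1a in 16 and 9. Cd5 and Cd6, receptors of T cells, had 22 and 46 UMIs in the Cd3-bearing barcodes and 0 in the Cd3-free ones.

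NK receptors separated the Cd3-free barcodes from most of the others, without having been used in the rule or in the split by Cd3 RNA. Ncr1 had 53 UMIs over all 9 Cd3-free barcodes, 18 UMIs in 2 of 27 Cd3-bearing ones and 0 in the 34 C1q-high and the 2777 other barcodes. Klrb1c had 49 UMIs in 9 of 9, 11 UMIs in 3 of 27 and 0 UMIs in the C1q-high barcodes. Summed over Ncr1, Klrb1c, Klre1, Klra4, Klra7, Klra8 and Klra9, the Cd3-free barcodes held 10, 18 and 36 UMIs (lowest, median, highest), the Cd3-bearing ones 0, 0 and 34, and the C1q-high ones 0, 0 and 4. At least 10 of these UMIs were in 9 of 9, 2 of 27 and 0 of 34, and a count of 0 in 34 allows a share of up to 8.82%. The 2 Cd3-bearing barcodes in question held 34 and 30 NK receptor UMIs, 16 and 1 Cd3 UMIs, and no Cd8 UMI. Ncr1 and Klrb1c are also made by other innate lymphoid cells in the mouse, so these markers do not by themselves name the Cd3-free barcodes NK cells.

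Receptors of the NKG2 family were shared more widely. Klrd1 (CD94) was in 24 of 27 Cd3-bearing, 9 of 9 Cd3-free and 30 of 34 C1q-high barcodes, with 623, 1443 and 180 CPM. Its partner Klrc1 (NKG2A, an inhibitory receptor) was in 20, 7 and 19, and Klrk1 (NKG2D, an activating one) in 22, 9 and 23. Klrd1 was not limited to members, since dendritic-gene barcodes held 380 CPM of it and macrophage-gene barcodes 20.5. Klra genes and Klrc genes are families of near-identical copies on chromosome 6, between which reads can be split, so single members of them are uncertain. Of 19 listed NK receptor genes, all 19 had at least 10 UMIs. A log2 ratio over 1 was held by 15 and under -1 by 3, beside 22.8% and 8.74% of all genes. The 3 were the adaptors Tyrobp and Fcer1g and the Fc receptor Fcgr3, which myeloid cells also make. Tyrobp, which carries the signal of activating NK receptors, was in 9 of 9 Cd3-free and 13 of 27 Cd3-bearing barcodes.

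Cytotoxic genes were found in both C1q-low groups. Nkg7 was at 2658 CPM in Cd3-bearing (exact Poisson interval 2485 to 2840) and 2653 CPM in Cd3-free barcodes (2282 to 3068), against 1.38 CPM in macrophage-gene and 6.37 CPM in neutrophil-gene barcodes. Per barcode it had 0, 27 and 126 UMIs (lowest, median, highest) in Cd3-bearing, 10, 18 and 31 in Cd3-free, and 0, 22.5 and 93 in C1q-high barcodes. Nkg7 was thus at nearly the same level in the 2 C1q-low groups, within their counting intervals, and every Cd3-free barcode held at least 10 UMIs.

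Gzmb, a granzyme of activated killer cells, had 0, 14 and 101 UMIs in Cd3-bearing barcodes (lowest, median, highest), 0, 1 and 72 in Cd3-free and 0, 7 and 111 in C1q-high ones. It was in 21 of 27, 6 of 9 and 29 of 34. Gzma had 0, 0 and 142 UMIs in Cd3-bearing barcodes, 0, 6 and 282 in Cd3-free and 0, 0 and 87 in C1q-high ones. The medians of Gzmb and Gzma ranked the Cd3-bearing and Cd3-free groups in opposite orders, while the ranges overlapped for both genes. The highest Cd3-free counts of both lay in 1 barcode, the deepest of the 9 with 19817 UMIs: without it, the other 8 held 121 Gzma and 8 Gzmb UMIs, or 2480 and 164 CPM, against 986 and 1854 CPM in Cd3-bearing barcodes. Gzma was concentrated on both sides: 142 and 110 of the 326 UMIs in Cd3-bearing barcodes lay in single barcodes, as did 60 and 33 of the 121. These CPM values thus rest on few barcodes and do not order the groups. At least 10 Gzma UMIs were in 4 of 27, 4 of 9 and 5 of 34. Gzmk, another granzyme of T cells, had 45 UMIs in 14 Cd3-bearing and 79 in 21 C1q-high barcodes and 0 in the Cd3-free ones. Perforin, Prf1, had 17 UMIs in 10 Cd3-bearing, 28 in 6 Cd3-free (15 of them in the deepest barcode) and 10 in 8 C1q-high barcodes. Of the 12 listed effectors, 11 had at least 10 UMIs. A log2 ratio over 1 was held by 8 and under -1 by 3, beside 22.8% and 8.74% of all genes. The 3 were Srgn, Ctsc and Lamp1, granule and lysosome genes that myeloid cells share. Gzmm had 0 UMIs in the C1q-low members.

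A few barcodes held most of some effector RNAs. Gzmc, Gzmd and Gzme, neighbouring granzyme genes on chromosome 14, had 146, 67 and 43 UMIs in the Cd3-free barcodes, of which 130, 57 and 39 lay in the same deepest barcode, which also held 25 cell cycle UMIs. Gzmd and Gzme had 0 UMIs in every Cd3-bearing, C1q-high and other barcode of library 2, so they rank first by log2 ratio among genes outside the lists. These genes are near-identical, and their single counts are uncertain. Xcl1, a chemokine that attracts cross-presenting dendritic cells, had 69 UMIs in 3 C1q-low barcodes, 49 of them in 1 Cd3-bearing barcode. It had 19 UMIs in 2 C1q-high and 0 in the other barcodes. Such genes describe single barcodes here, not a class.

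**Figure D2:**
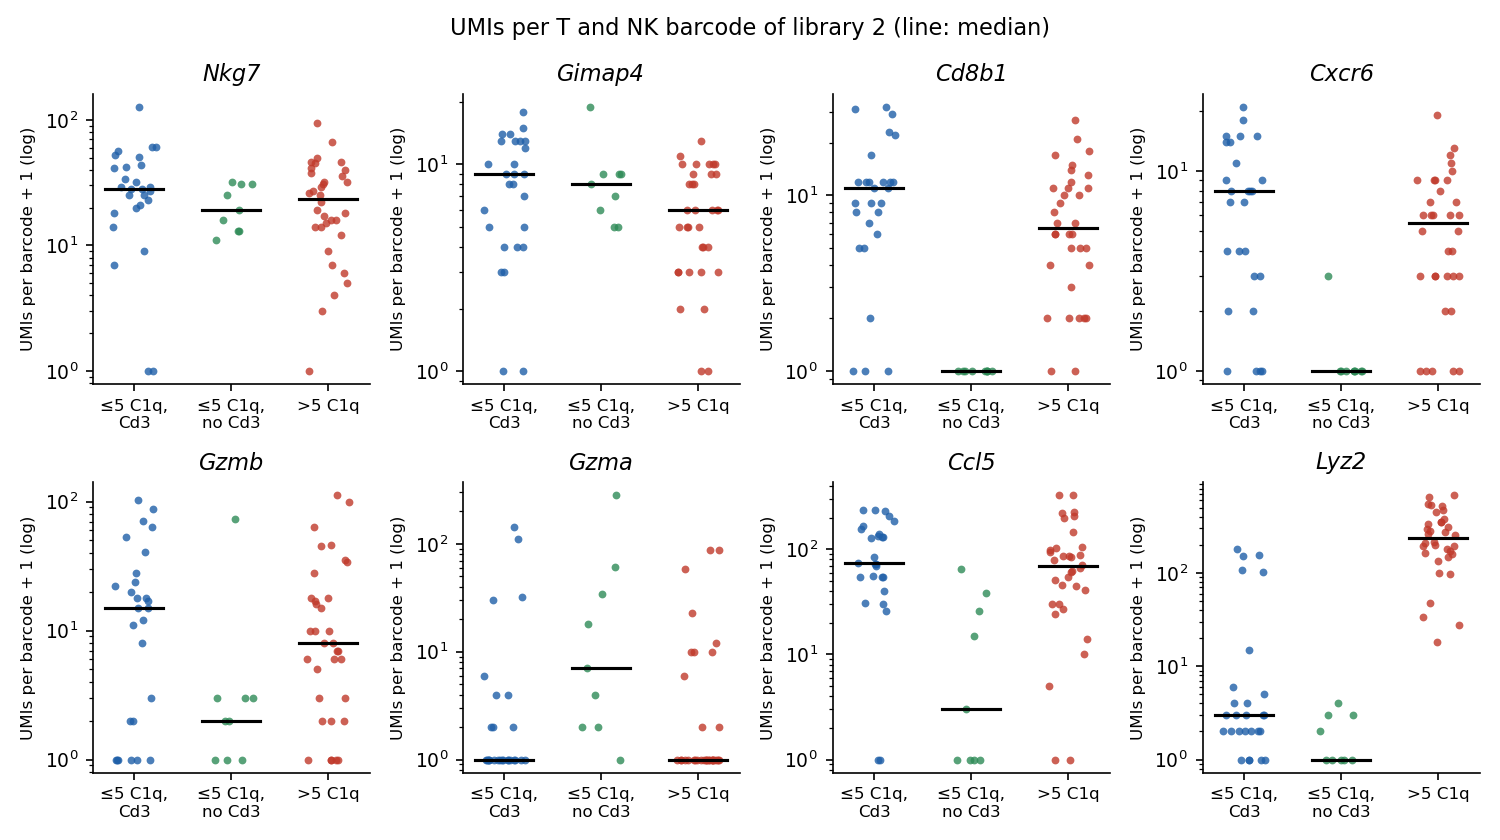
UMIs per barcode plus 1 on a log scale for 8 genes in each of the 70 members of library 2, split into Cd3-bearing C1q-low (27), Cd3-free C1q-low (9) and C1q-high (34) barcodes, with a line at the median. Cd8b1 is at 0 in all 9 Cd3-free barcodes and Lyz2 has a median of 2, 0 and 234 UMIs in the 3 groups, while Nkg7 overlaps across all 3.

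Among cytokines and chemokines, Ccl5 was found in 25 of 27 Cd3-bearing, 5 of 9 Cd3-free and 32 of 34 C1q-high barcodes. It had 0, 73 and 236 UMIs (lowest, median, highest) in Cd3-bearing barcodes, 0, 2 and 64 in Cd3-free and 0, 68 and 326 in C1q-high ones. Levels were 8391, 2070 and 2788 CPM, against 36.2 CPM in macrophage-gene and 33.6 CPM in neutrophil-gene barcodes. Ccl5 recruits T cells and monocytes, and it was high in Cd3-bearing barcodes and lower in most of the Cd3-free ones. Ifng, the macrophage-activating cytokine, had 24 UMIs in 11 Cd3-bearing, 2 in 1 Cd3-free and 66 in 14 C1q-high barcodes, against 6 in the others. Of the 66 UMIs, 28 lay in 1 C1q-high barcode and 14 in another. The C1q-high class held 1105844 UMIs in all, against 330708 in the Cd3-bearing class, so these sums do not order the classes. Of 19 listed cytokines, 6 had at least 10 UMIs. A log2 ratio over 1 was held by 4 and under -1 by 0, beside 22.8% and 8.74% of all genes. Il4, Il5, Il13, Il17a, Il21, Il22, Csf2, Tnf and Areg had 0 UMIs in the C1q-low members. Ccl3 and Ccl4, which myeloid cells also make, had log2 ratios of -0.34 and 0.32.

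Among 14 genes linked to tissue residency and activation, Cxcr6 was found in most Cd3-bearing barcodes, while the list as a whole summed to 2062 CPM in Cd3-bearing and 2187 CPM in Cd3-free barcodes. Cxcr6, the receptor of Cxcl16 and a mark of tissue-resident T cells, had 186 UMIs in 23 of 27 Cd3-bearing barcodes, 2 UMIs in 1 of 9 Cd3-free and 164 UMIs in 29 of 34 C1q-high ones. Cxcr3, the receptor of interferon-induced chemokines and not in that list, was in 19, 5 and 17. Cxcr6 lies within the span of Fyco1 on the other strand, which had 8 UMIs in the C1q-low members, and whether counting used strand is not given in the sources used here. Of the 14 residency and activation genes, 10 had at least 10 UMIs, with 8 over a log2 ratio of 1 and 2 under -1. The shares of all genes were 22.8% over 1 and 8.74% under -1. Itgae, the integrin chain of epithelial residency, had 0 UMIs in the C1q-low members, and Itga1 had 2. Cd69, an activation and residency marker, was in 11 of 27 Cd3-bearing, 2 of 9 Cd3-free and 10 of 34 C1q-high barcodes, with at most 2 UMIs in any of them. Among genes of naive and recirculating lymphocytes, Tcf7 was in 3 Cd3-bearing and 3 Cd3-free barcodes, Il7r in 4 and 0, and Ccr7 in none. Of the 10 genes of that list, 6 had at least 10 UMIs, with 3 over 1 and 3 under -1. All 3 members of library 1 held Il7r (7 UMIs) and S1pr1 (5 UMIs), genes of recirculating T cells, and S1pr1 had 1 UMI in the 36 C1q-low members of library 2. The 3 members of library 1 are too few to set against library 2.

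Inhibitory receptors were found in most Cd3-bearing barcodes. Lag3 was in 23 of 27 with 123 UMIs and Pdcd1 (PD-1) in 19 of 27 with 66 UMIs, against 4 and 1 of 9 Cd3-free barcodes. In C1q-high barcodes Lag3 was in 29 and Pdcd1 in 25 of 34. Both are induced by antigen receptor signals and curb T cell responses. Havcr2 (TIM-3), which macrophages and dendritic cells make too, was in 13 of 27, 1 of 9 and 23 of 34, while Tigit had 2 UMIs in Cd3-bearing barcodes. Tox, a transcription factor of persistently stimulated CD8 T cells, was in 13 of 27 Cd3-bearing and 18 of 34 C1q-high barcodes and had 0 UMIs in the Cd3-free ones. Of 10 inhibitory receptor genes, 7 had at least 10 UMIs, with 6 over a log2 ratio of 1 and 0 under -1. The shares of all genes were 22.8% and 8.74%.

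The 18 listed transcription factors summed to 2132 CPM in Cd3-bearing and 2260 CPM in Cd3-free barcodes, with overlapping exact Poisson intervals (1977 to 2295 and 1918 to 2645), while single factors differed in where they were found. Bcl11b, which T cells need for their identity, had 34 UMIs in 15 Cd3-bearing, 0 in Cd3-free and 22 UMIs in 16 C1q-high barcodes. Eomes and Tbx21, factors of killer lymphocytes, had 5 and 16 UMIs in Cd3-bearing and 8 and 2 UMIs in Cd3-free barcodes, counts too few to order the groups. Foxp3, of regulatory T cells, had 0 UMIs in the 36 C1q-low members; 1 Foxp3 UMI was in the deepest member of library 1, which also held 25 Gzmb, 9 Nkg7 and 15 H2-DMb2 UMIs, the last a gene of antigen-presenting cells. Of 18 factors, 13 had at least 10 UMIs, and all 13 lay over a log2 ratio of 1, beside 22.8% of all genes. The 8 Gimap genes, GTPases of lymphocytes, all lay over 1 with a median log2 ratio of 5.93. Gimap4 was also in 24 of 36 B-gene barcodes.

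Cell cycle genes were concentrated in a minority of members. Summed over Mki67, Top2a, Birc5, Ccnb2, Stmn1 and Tk1, Cd3-bearing barcodes held 0, 1 and 91 UMIs (lowest, median, highest), Cd3-free ones 0, 0 and 25, and C1q-high ones 0, 2.5 and 62. At least 10 were in 8 of 27, 1 of 9 and 14 of 34. Top2a, needed to untangle chromosomes before division, was in 9 Cd3-bearing, 0 Cd3-free and 16 C1q-high barcodes. All 12 listed cycle genes lay over a log2 ratio of 1, beside 22.8% of all genes, with a median of 4.88. A few barcodes thus made the class level. Median depth ranked the 3 classes in the same order as their shares with at least 10 cycle UMIs. Total UMIs had a median of 9852 in Cd3-bearing, 7044 in Cd3-free and 34124 in C1q-high barcodes. The part of depth in these counts was not tested.

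**Figure D3:**
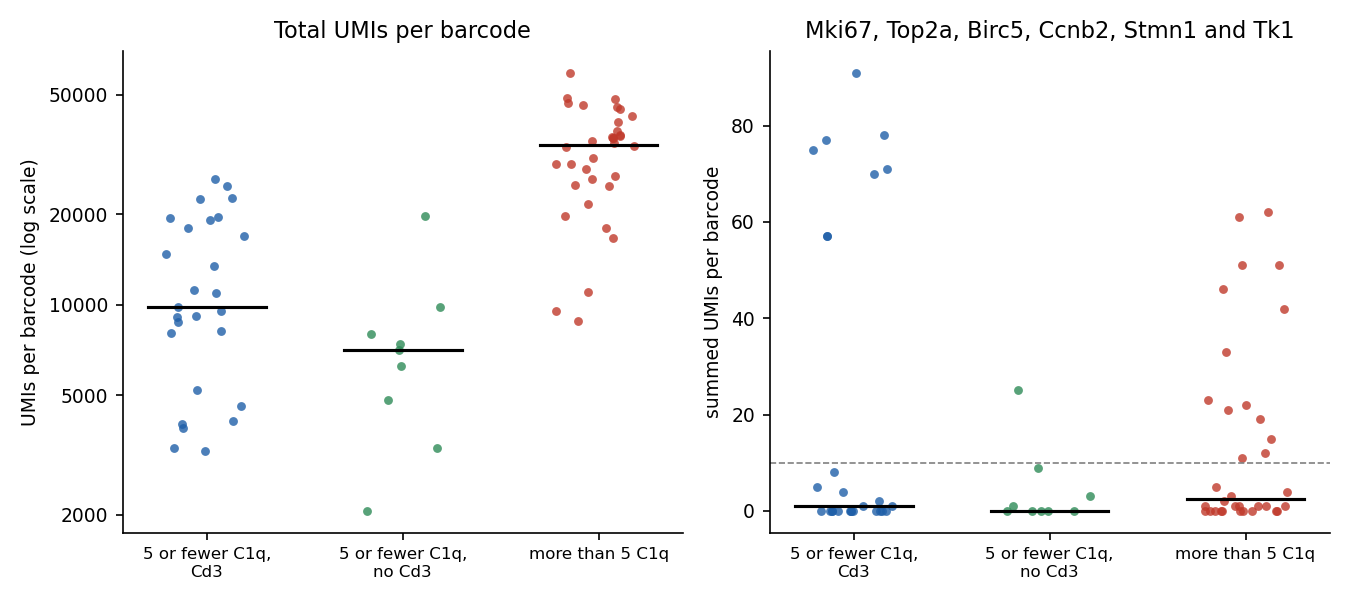
Total UMIs per barcode on a log scale (left) and summed UMIs of 6 cell cycle genes with a dashed line at 10 (right) for the 70 members of library 2 by class, with a line at the median. C1q-high barcodes range from 8825 to 59319 UMIs, and most barcodes of every class lie under 10 cycle UMIs.

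C1q-high barcodes carried T cell and macrophage RNA side by side. Cd3g, which the rule used, had 0, 9.5 and 25 UMIs per barcode (lowest, median, highest), against 0, 13 and 39 in Cd3-bearing barcodes. Relative to all UMIs it was at 317 CPM, against 1231 CPM in Cd3-bearing barcodes. Outside the rule, Gimap4 had 0, 5 and 12 UMIs in C1q-high barcodes, against 0, 8 and 17 in Cd3-bearing ones, and Cxcr6 had 0, 4.5 and 18, against 0, 7 and 20. The ranges of all 3 genes overlapped, and each median was lower in the C1q-high barcodes. C1q genes had a median of 71 UMIs in C1q-high barcodes and 59 in macrophage-gene barcodes, and both classes were cut at more than 5 of these UMIs. Lyz2, a lysozyme of myeloid cells outside the rule, had a median of 234 UMIs in C1q-high barcodes, against 160 in macrophage-gene barcodes. The C1q and Lyz2 medians are raw counts, at median depths of 34124 UMIs in C1q-high and 14413 in macrophage-gene barcodes. Without the C1q genes, the other 7 of the 10 listed macrophage genes summed to 12164 CPM in C1q-high barcodes and 15835 CPM in macrophage-gene barcodes. Itgam, the gene of the sort marker, was in 34 of 34 C1q-high barcodes with a median of 17.5 UMIs.

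The C1q-high barcodes also stood apart in depth, with a median of 34124 UMIs and 5363 genes, against 14413 UMIs and 3334 genes in macrophage-gene barcodes. They also had to hold at least 2 rule UMIs, a count that deeper barcodes reach more easily. The part of this rule in the depth was not tested. Xist and Y-linked RNA were found together in 6 of 34 C1q-high barcodes, 0 of 36 C1q-low ones, and 43 of 544 macrophage-gene barcodes. A search for droplets with RNA of 2 cell types marked 0 of the 70 members, and on simulated data the search failed to find pairs of these cells with macrophage-gene barcodes, so its result says nothing about them. Whether a C1q-high barcode stands for 1 cell or for more was not tested.

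Most C1q-low members held little macrophage and neutrophil RNA, with exceptions, while all 36 of library 2 held UMIs of listed monocyte genes. Lyz2 had a median of 2 UMIs in Cd3-bearing and 0 in Cd3-free barcodes, but 5 of 27 Cd3-bearing barcodes held at least 50, up to 181. The macrophage list summed to 3338 CPM in Cd3-bearing and 146 CPM in Cd3-free barcodes, with 8 of the 10 genes at 0 in the Cd3-free ones. Per barcode, scaled to 10000 UMIs, it ran from 0 to 151 with a median of 3.06 in Cd3-bearing barcodes and from 0 to 9.72 in Cd3-free ones, against 28.5 to 1098 in macrophage-gene barcodes. Its defining C1q genes had 19 UMIs in the Cd3-bearing and 0 in the Cd3-free barcodes. The 7 neutrophil genes summed to 275 and 306 CPM, against 141577 CPM in neutrophil-gene barcodes. S100a8, S100a9 and Retnlg among them were used in the rules of members and of neutrophil-gene barcodes, so this contrast was largely fixed. Monocyte genes were not near 0, at 3526 and 2464 CPM, against 9459 CPM in macrophage-gene and 3402 CPM in neutrophil-gene barcodes. In the Cd3-free barcodes, Plac8 (96 UMIs in 6 of 9) and Ccr2 (55 UMIs in 9 of 9) held most of it. Ccr2 is a chemokine receptor that lymphocytes can also make. The part of myeloid RNA in the values of the 5 barcodes with Lyz2 was not tested.

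Itgam RNA was scarce in the C1q-low members despite the sort. It was in 9 of 27 Cd3-bearing and 2 of 9 Cd3-free barcodes, with 44 and 4 UMIs, against 537 of 544 macrophage-gene and 600 of 1465 neutrophil-gene barcodes. At the transcript level it was at 120 CPM in C1q-low members, against 633 CPM in macrophage-gene and 402 CPM in neutrophil-gene barcodes. Of its 44 UMIs in Cd3-bearing barcodes, 16, 9, 8, 3 and 2 lay in the 5 barcodes with at least 50 Lyz2 UMIs. Itgb2, the partner chain of CD11b, was in 24 and 9, and Ptprc, which encodes CD45, in 26 and 9. The surface protein was not measured in these data, and RNA counts do not give it. Itgal, the chain that lymphocytes pair with Itgb2, was the 1 gene of the 5 in this list over a log2 ratio of 1, at 1.72. Itgam was the 1 under -1, at -2.24. The shares of all genes were 22.8% and 8.74%.

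The antibody tags of library 2 split the classes. All 34 C1q-high barcodes had more BC2 than BC3 counts (exact interval 89.7 to 100%), as had 524 of 544 macrophage-gene barcodes (96.3%), while 31 of 1465 neutrophil-gene barcodes did (2.12%). Of the Cd3-bearing barcodes 14 lay on the BC2 side and 13 on the BC3 side, and of the Cd3-free ones 1 and 8. C1q-low members thus lay on both sides, as did all kept barcodes (1146 of 2847 on the BC2 side). Among Cd3-bearing barcodes, those on the BC2 side had a median of 16390 UMIs and 6 of 14 held at least 10 cycle UMIs, against 8146 UMIs and 2 of 13 on the BC3 side. At least 50 Lyz2 UMIs were in 4 of these 14 and 1 of these 13. The part of depth and myeloid RNA in this was not tested. The summed tags had a median of 18750 counts in C1q-high, 3441 in Cd3-bearing and 2323 in Cd3-free barcodes, against 8774 in macrophage-gene and 3036 in neutrophil-gene barcodes. C1q-high barcodes thus had the highest median depth and tag counts of these classes and held macrophage RNA. The part of depth, tag counts and macrophage RNA in the T cell values there was not tested.

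**Figure D4:**
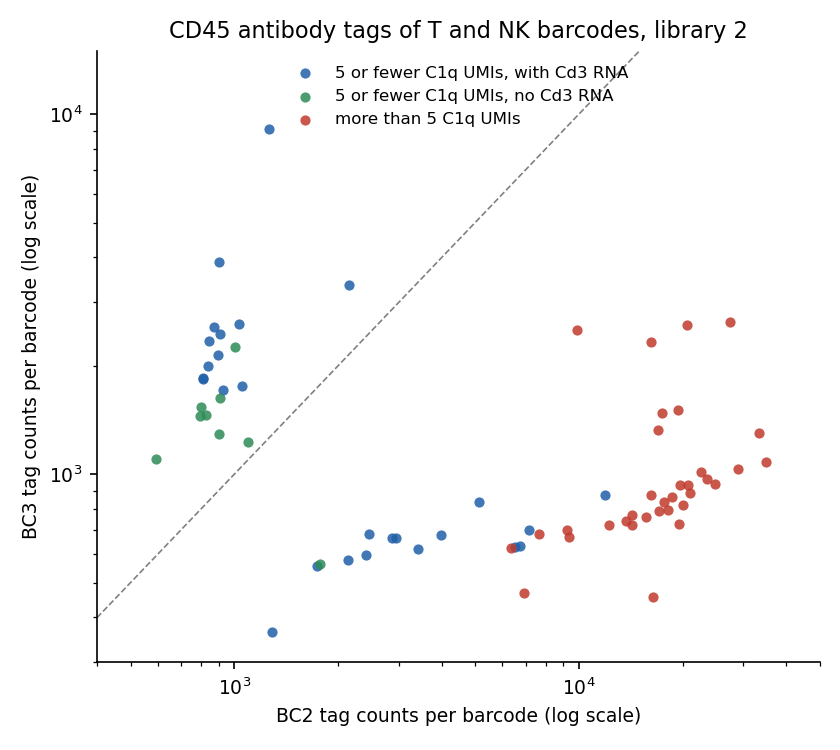
BC2 against BC3 antibody tag counts, both on log scales, for the 70 members of library 2, with a dashed line where they are equal. All 34 C1q-high barcodes lie below the line, on the BC2 side, and the Cd3-bearing barcodes fall on both sides of it.

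Depth differed between classes, so each barcode was also thinned to 1000 UMIs. Free RNA in the droplets also gives UMIs to cells that do not make a gene, and thinning does not remove it. After thinning, Nkg7 was found in 74.1% of Cd3-bearing (exact interval 53.7 to 88.9%), 88.9% of Cd3-free (51.8 to 99.7%) and 35.3% of C1q-high barcodes (19.7 to 53.5%), against 0.371% of 539 macrophage-gene and 0.703% of 1138 neutrophil-gene barcodes. Thinning left out 0 members, 5 macrophage-gene and 327 neutrophil-gene barcodes. Klrb1c was in 88.9% of Cd3-free, 7.41% of Cd3-bearing and 0% of C1q-high barcodes, and Cd8b1 in 0%, 59.3% and 23.5%, against at most 0.186% of macrophage-gene and neutrophil-gene barcodes. Gzmb was in 55.6%, 11.1% (1 of 9) and 35.3% of Cd3-bearing, Cd3-free and C1q-high barcodes, against 0.186% of macrophage-gene and 0% of neutrophil-gene barcodes. The intervals of Nkg7 in all 3 classes of members lay above those of the macrophage-gene and neutrophil-gene barcodes, and those of Gzmb did so in Cd3-bearing and C1q-high barcodes. Unlike these, Gimap4 and Klrd1 were above background elsewhere too, in 36.1% of B-gene and 27% of dendritic-gene barcodes.

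**Figure D5:**
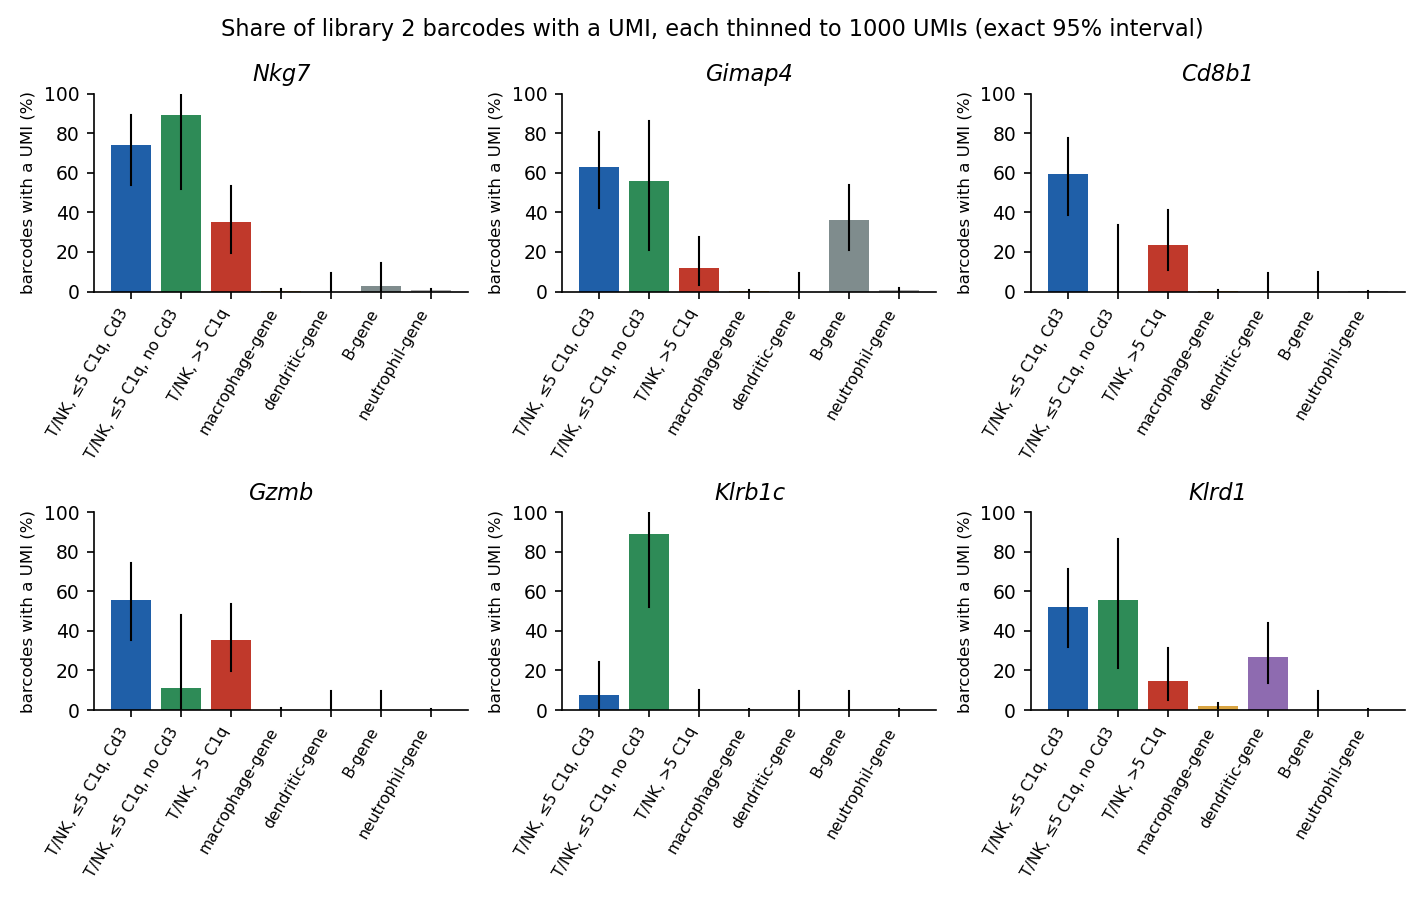
Share of barcodes of library 2 with a UMI of each of 6 genes after every barcode was thinned to 1000 UMIs, for the 3 classes of members and 4 classes of other barcodes; bars are shares and lines exact 95% intervals. Nkg7, Cd8b1, Gzmb and Klrb1c stay near 0 in macrophage-gene, dendritic-gene and neutrophil-gene barcodes, while Gimap4 is also seen in B-gene and Klrd1 in dendritic-gene barcodes.

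Genes of the dissociation response were at lower levels in the C1q-low members than in other barcodes. Of 12 listed genes, 8 had at least 10 UMIs in the C1q-low members, and 7 of them lay under a log2 ratio of -1 and 0 over 1, with a median of -1.76. Fos, an early response gene, was at 223 CPM in C1q-low and 803 CPM in C1q-high members, against 1297 CPM in the other barcodes. Over all lymphocyte lists, 127 of 175 genes had at least 10 UMIs, 102 lay over 1 and 16 under -1, with a median log2 ratio of 5.80, beside the 22.8% and 8.74% of all genes; the rule chose the class by T cell RNA, so nothing is read from this.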

How the data were processed

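Droplet 3' end sequencing of 2 libraries of 1 group was used. The authors deposited UMI counts per gene and barcode, unscaled and limited to called cells, and for library 2 also antibody tag counts; per the submitters' processing notes they used Cell Ranger 3.0.1 and genome build mm10. The annotation release and the strand setting of the counting are not given in the sources used.

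UMIs were summed per class with numpy 2.4.6, scipy 1.17.1 and pandas 2.3.3 in Python 3.11.15, and CPM computed from the sums. Shares carry exact (Clopper-Pearson) and CPM exact Poisson 95% intervals. A gene counted as over or under at a log2 ratio of 1 or -1, with at least 10 UMIs in the C1q-low members. The split of C1q-low members by Cd3 RNA also uses measured UMIs.

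Other classes were cut by count rules. Neutrophil-gene barcodes had at least 2% S100a8, S100a9 and Retnlg UMIs and 5 or fewer C1q UMIs, and B-gene barcodes at least 2 Cd79 UMIs. Macrophage-gene barcodes had more than 5 C1q UMIs, no Cd79 UMI and under 2% neutrophil gene UMIs. Dendritic-gene barcodes had at least 2 UMIs of Cd209a, H2-DMb2, Flt3, Zbtb46 and Ccr7 and 5 or fewer C1q UMIs. They also had no Cd79 UMI and under 2% neutrophil gene UMIs. Doublets were searched for with scikit-learn 1.9.0 (nearest neighbours among cells and simulated pairs) and removed only as an alternative. The scripts were tested on simulated data.

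Named genes are the rule genes, the markers, up to 6 genes per list by level and the 20 with the highest log2 ratio outside the lists; other listed genes were named after their values were seen. Members and lists were chosen with earlier results of these data known. T cell receptor constant genes were not analysed here. Positions of genes are from GENCODE M21. A count of 0 allows a share of up to 3 counts of the total. Some genes of the lists are counted in them but are not reported here by name.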

Additional observations from a re-analysis of the deposited data

How the results depend on the processing

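No paired analysis was possible because both libraries belong to 1 group. The share of T and NK barcodes stayed between 0.728% (thinned to 1000 UMIs) and 2.29% (at least 1 rule UMI) under 11 alternatives, against 1.36%, and was 0.269% to 2.46% with either library left out. Over all 73 members, thinning to 1000 UMIs moved the share with more than 5 C1q UMIs to 5.48% (46.6% unthinned), with Cd3 RNA to 53.4% (86.3%), with an NK receptor UMI to 16.4% (37%), with Cd4 or Cd8 RNA to 43.8% (82.2%) and with Cd8 RNA to 42.5% (78.1%), since fewer UMIs were kept. In members with 5 or fewer C1q UMIs the share with an NK receptor UMI was 51.3%, with Cd4 or Cd8 69.2% and with Cd8 61.5%; with under 50 Lyz2 UMIs, a choice made after seeing the data like that for Cd8 alone, it was 50%, 71.1% and 63.2%. With either library left out, the shares ran from 0% to 48.6% for more than 5 C1q UMIs, 85.7% to 100% for Cd3, 0% to 38.6% for an NK receptor, 81.4% to 100% for Cd4 or Cd8, and 0% to 81.4% for Cd8; the extremes are the 3 members of library 1. Requiring 1 tag to be at least 5 times the other moved the BC2 share to 97.6% (70% by the larger tag); this left 41 of 70 members, 33 of them C1q-high, 8 Cd3-bearing and 0 Cd3-free. The number of listed lymphocyte genes over a log2 ratio of 1 was 102, and 102 to 133 under its alternatives. That count hides moves in size. Against other barcodes with under 2 rule UMIs, chosen after seeing the data, 37 of 103 named genes moved beyond counting error. Among them were Cd3g to 10.25 (6.97), Cxcr6 to 11.28 (6.52) and Nkg7 to 10.31 (7.36). With all members 88 moved, and with the mean over barcodes of CPM 77. Against other barcodes with few C1q and neutrophil UMIs 45 moved. With members under 50 Lyz2 UMIs 37 moved, and with 1 UMI added 0. The median log2 ratio ran from 5.73 (all members) to 8.73 (under 2 rule UMIs) for the signalling list and from 4.39 (all members) to 6.50 (mean over barcodes) for all lymphocyte lists, against 6.80 and 5.80. With all members in place of C1q-low ones, the log2 ratio of Mrc1 was 0.06 and of Pf4 0.17, against -1.79 and -1.02; C1q-high members hold macrophage RNA. Gene levels without library 2 could not be computed, since library 1 holds 3 members. Depth limits small shares: 9 Cd3-free barcodes allow up to 33.3% for a gene at 0.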

Other observations

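Outside the lists, the genes with the highest log2 ratio of C1q-low members to other barcodes in library 2 included Sh2d2a, a signalling adaptor of T cells, with 84 UMIs in 30 of 36 barcodes against 28 UMIs in the other barcodes, and Prkcq, a kinase of T cell receptor signalling, with 43 UMIs in 26 barcodes against 19. Car2 had 38 UMIs in Cd3-free, 7 in Cd3-bearing and 3 in C1q-high barcodes. Klra1 had 12 UMIs in 2 Cd3-free and 12 in 2 Cd3-bearing barcodes and 0 in the C1q-high and other barcodes, as a member of a family of near-identical copies. The basophil protease gene Mcpt8 had 4 UMIs in 2 Cd3-free barcodes, and Pecam1 16 UMIs in 4, while 5 of 6 endothelial markers were at 0 in the C1q-low members.

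Of the 10 barcodes of library 2 that met the rule but for a Cd79 UMI, 8 held more than 5 C1q UMIs, 8 held Cd8 RNA and 8 lay on the BC2 side, at a median of 31444 UMIs. In library 2, 1 barcode with 2 or more rule UMIs held 2% or more neutrophil gene UMIs, and 1 more was not kept by the filters on genes and mitochondrial UMIs.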
